A study of Mus musculus with 12 samples.

Results

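Gene expression was compared between LY6D- luminal and LY6D- basal epithelial cells of the mouse prostate, which are the LY6D-negative parts of the gates drawn for the luminal and the basal compartment. Of 12 arrays in the series, 4 were used: LY6D- luminal cells of mice 4 and 5 and LY6D- basal cells of mice 3 and 5, chosen by their labels. The donors of all groups were wild-type, hormone-naïve males, and no age is given here. The luminal gate held cells with low Sca1 and low CD49f, and the basal gate held CD49f-positive cells with intermediate Sca1. Both gates excluded cells with the lineage markers CD45, CD31 and Ter119. The LY6D+ and Sca1-high libraries entered no group mean. They served in alternative fits as a source of the spread. Below, luminal and basal stand for the LY6D- groups. The comparison asks how the luminal and basal gates differ once cells carrying LY6D have been removed from each.

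The prostate epithelium has an inner luminal layer and an outer basal layer. Luminal cells make the prostatic secretions and are known for keratins 8 and 18, the androgen-regulated protein probasin and a large secretory apparatus. Basal cells lie on the basement membrane, which they hold through integrins and hemidesmosomes, and are known for keratins 5 and 14 and the transcription factor p63. LY6D is a small lipid-anchored surface protein of the Ly6 family, a family that Sca1 (the product of Ly6a) also belongs to.

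Values are deposited log2 signals, so a difference of 1 is a doubling of signal. Differences are luminal minus basal, and levels are compared between libraries within a gene, not between genes. Each group had 2 libraries, and mouse 5 gave a library to each group, so that the libraries are not fully independent. The number of arrays limits the precision, and an exact permutation test of 2 libraries against 2 could not go below 0.333, two-sided. The test was therefore limma across the 18796 genes that had at least 2 of the 4 libraries above the lower quartile of the table (2.98), with Benjamini-Hochberg adjustment at 0.05. Across genes the 2 luminal libraries correlated at a Pearson r of 0.845, the 2 basal libraries at 0.862 and both libraries of mouse 5 at 0.857. The mouse 5 libraries had fewer genes above the lower quartile (17607 luminal and 17883 basal) than luminal mouse 4 (18755) and basal mouse 3 (18738). The difference within mouse 5 and the difference of luminal mouse 4 minus basal mouse 3 share no library. Across the genes tested they correlated at 0.378 and had the same sign in 55.4%, as a description of genes, which are not independent replicates.

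Among the transcripts of the sort proteins, that of LY6D did not separate the groups. Ly6d signal was 5.11 and 4.61 in luminal cells of mice 4 and 5, against 4.86 and 6.03 in basal cells of mice 3 and 5, so the groups overlapped. Itga6, which encodes CD49f, was 5.97 and 6.20 in luminal libraries, against 7.44 and 9.05 in basal libraries, in the order of the gates. Ly6a had no probe set of its own in the annotation and was not analysed here. Ptprc, which encodes CD45, was 5.97 and 8.90 in luminal libraries, against 3.27 and 3.76 in basal libraries. Pecam1, which encodes CD31, was 5.53 and 5.03 in luminal libraries, against 8.62 and 8.19 in basal libraries. Both had been used to remove cells, and each was higher in both libraries of 1 group: Ptprc in luminal and Pecam1 in basal cells. With limma the adjusted p was 1.00 for Ly6d, 0.632 for Itga6, 0.465 for Ptprc and 0.0952 for Pecam1, so none passed.

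Checked against their markers, the groups separated on basal and on secretory luminal markers but not on the luminal keratins. All 7 measured basal markers were lower in both luminal libraries. The mean over the markers was 5.44 and 5.97 in luminal mice 4 and 5, against 8.02 and 9.24 in basal mice 3 and 5. Itga6 is among the 7, and the gates were drawn on its protein, CD49f, so it is no separate check. Among all genes tested, 12.4% were lower and 14.8% higher in both luminal libraries. Krt5 had only probe sets shared with other symbols and was not analysed here. The p63 gene Trp63 separated the groups by little, at 4.65 and 3.94 in luminal libraries, against 4.93 and 4.84 in basal libraries. Of 7 measured luminal markers, 5 were higher in both luminal libraries. The luminal keratins were the exceptions: Krt8 was 9.63 and 10.57 in luminal libraries, against 8.88 and 10.91 in basal libraries, and Krt18 was 10.53 and 11.14, against 10.13 and 11.07. For both keratins the groups overlapped. The secretory markers did separate, with Pbsn, which encodes probasin, at 13.08 and 13.14 in luminal libraries, against 6.94 and 10.84 in basal libraries.

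Markers of other cell types also differed, in cells sorted as negative for CD45 and CD31. Of the 8 myeloid markers, 7 were higher in both luminal libraries, with list means of 6.65 and 8.17 in luminal mice 4 and 5, against 4.86 and 4.55 in basal mice 3 and 5. The exception was the complement gene C1qa, at 5.27 and 5.43 in luminal libraries, against 5.35 and 4.62 in basal libraries. Of the 6 endothelial markers, 5 were lower in both luminal libraries, with list means of 4.43 and 4.42 in luminal, against 7.42 and 7.22 in basal libraries. The exception was Tek, an angiopoietin receptor, at 3.42 and 2.67 in luminal libraries, against 3.23 and 5.05 in basal libraries. Lymphoid marker means were 4.12 and 5.23 in luminal, against 3.91 and 3.66 in basal libraries, over 3 measured markers. Smooth muscle means were 5.31 and 6.04 against 4.74 and 4.68, and fibroblast means 5.78 and 6.43 against 6.35 and 5.73. Of 4 smooth muscle markers 3 were higher in both luminal libraries, and of 5 fibroblast markers 1 was higher and 1 lower. In arrays of pooled cells, fewer cells of a type and less RNA per cell cannot be told apart. The part of such cells in the results below was not tested.

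**Figure D1:**
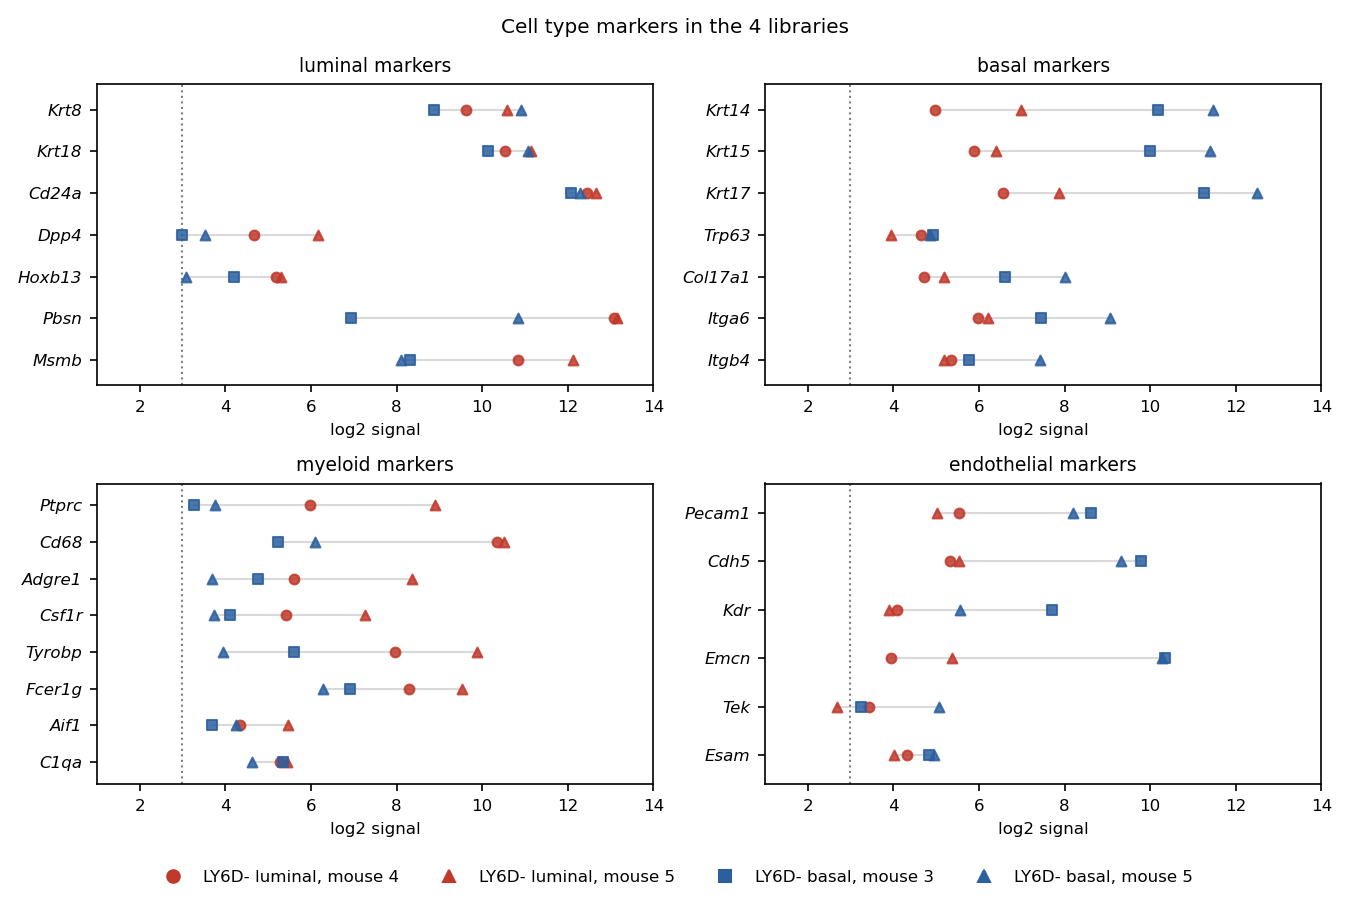
Log2 signal (x axis) of 28 marker genes in each of the 4 libraries, in 4 panels by cell type, with luminal libraries in red, basal libraries in blue, mouse 5 as triangles and the lower quartile of the table as a dotted line. Basal markers and the endothelial markers except Tek lie to the right in basal libraries. Most myeloid markers lie to the right in luminal libraries, while Krt8, Krt18 and Tek overlap.

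The test called 15 of the 18796 genes at the threshold of 0.05 (limma). They were 11 genes higher in luminal cells, a share of 0.0585%, and 4 lower, a share of 0.0213%, and 905 genes had an unadjusted p under 0.05. All 15 had the same sign within mouse 5 and between mice 4 and 3, and none overlapped between groups. They were selected on these same 4 libraries for a large difference over a small spread, so neither trait is a separate check. Where a gene list below holds some of them, that count restates these calls and is no separate finding. The fit had 2 residual degrees of freedom. On simulated data it recovered 0 of 100 genes changed by 2 and 59 of 100 genes changed by 6 on the log2 scale. In that simulation, smaller differences were mostly out of its reach. It was drawn a single time, with independent libraries and each gene's observed spread taken as true. The shared mouse 5 was not part of it, so these rates may differ from those of the real fit. Leaving out 1 library left 1 residual degree of freedom, so that the spread came from the pair of the other group alone. The prior degrees of freedom were then 3.85 without a luminal library and 59.3 without a basal one. Such fits therefore cannot tell how far the count rested on a single library. After each array was centred on its median the count was 0, with 750 genes at an unadjusted p under 0.05 (limma). After a further quantile normalization it was 2, 1 in each direction, against 11 higher and 4 lower here.

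**Figure D2:**
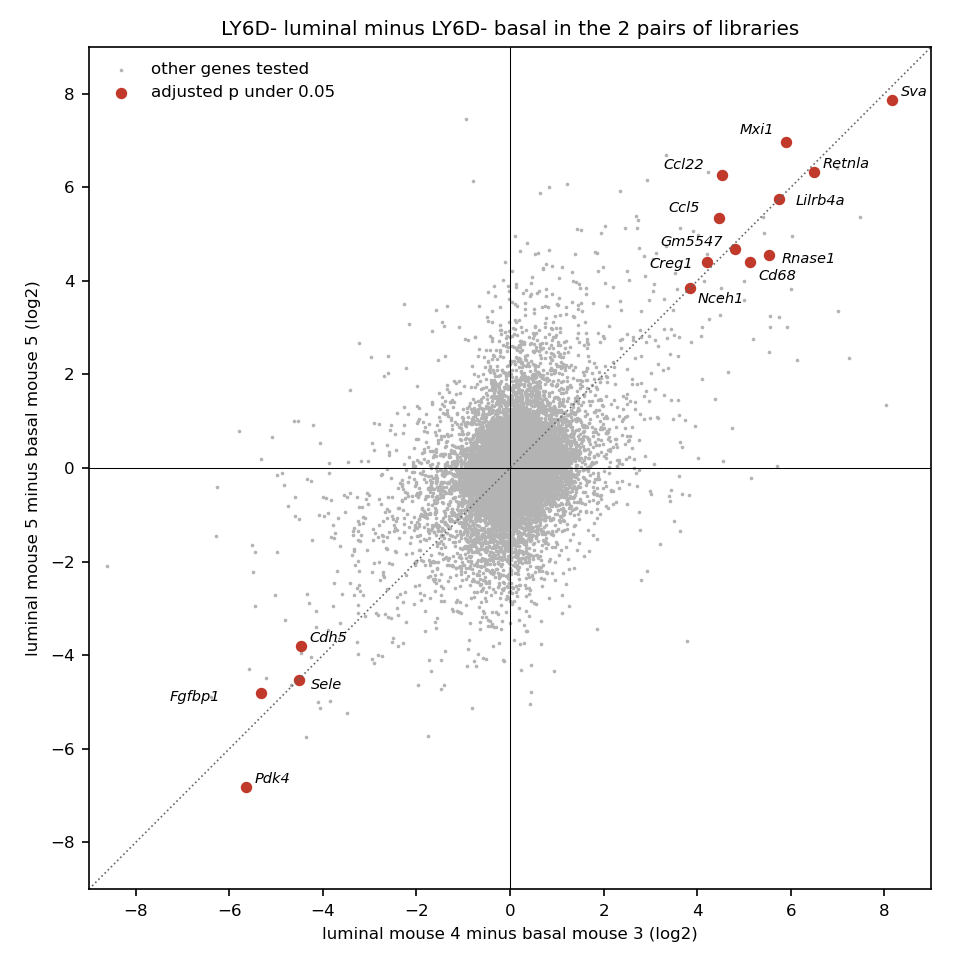
Each point is 1 of the 18796 genes tested, placed by the log2 difference of luminal mouse 4 minus basal mouse 3 (x axis) and of luminal mouse 5 minus basal mouse 5 (y axis). The 15 genes at an adjusted p under 0.05 in limma (red, named) lie near the dotted line of equal differences. They were selected on these same libraries, and Sva and Pdk4 lie at the ends. Most other genes lie in a cloud around 0.

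The genes that rose in luminal cells included secreted proteins of the male tract. Sva, seminal vesicle antigen, a seminal plasma protein that binds sperm, was 10.19 and 9.87 in luminal mice 4 and 5, against 2.01 and 2.0 in basal mice 3 and 5. Both basal libraries lay below the lower quartile of the table while both luminal libraries were far above its median (3.90), a difference of 8.02 ± 0.37 (SE; adjusted p = 0.0106, limma). The gene thus passed the filter through its luminal libraries alone. With spread from all 12 libraries of the series the SE was 2.23. Rnase1, a secreted ribonuclease, was 10.31 and 10.29 in luminal libraries, against 4.77 and 5.73 in basal libraries (5.05 ± 0.45, adjusted p = 0.0493, limma). The luminal pair agreed to within 0.05 and the basal pair differed by about 1.

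Mxi1, which encodes a partner of MAX that opposes MYC, was 10.49 and 11.58 in luminal libraries, against 4.60 and 4.62 in basal libraries. This difference of 6.43 ± 0.48 (adjusted p = 0.0419, limma) came from the brighter of the 2 probe sets for the gene. The other probe set read 6.10 and 6.60 in luminal libraries, against 5.59 and 4.81 in basal libraries, a difference of 1.15 in the same direction. The mean of both probe sets differed by 3.79, with an adjusted p of 0.0750 (limma). Nceh1, a hydrolase of cholesterol esters, also had 2 probe sets. The brighter read 7.31 and 7.30 in luminal libraries, against 3.47 and 3.45 in basal libraries (3.84 ± 0.36, adjusted p = 0.0493, limma), and the other differed by 1.62. Creg1, a secreted glycoprotein of the endolysosomal system, was 7.96 and 7.98 in luminal libraries, against 3.74 and 3.57 in basal libraries (4.31 ± 0.37, adjusted p = 0.0473, limma). Gm5547, a gene model, was 8.09 and 8.11 in luminal libraries, against 3.28 and 3.42 in basal libraries (4.75 ± 0.36, adjusted p = 0.0419, limma).

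The other 5 genes that rose in luminal cells are known from immune cells. Retnla, a secreted protein of alternatively activated macrophages, was 9.81 and 10.24 in luminal libraries, against 3.31 and 3.91 in basal libraries (6.42 ± 0.42, adjusted p = 0.0394, limma). Lilrb4a, an inhibitory receptor of myeloid cells, was 9.05 and 9.92, against 3.29 and 4.17 (5.75 ± 0.51). Cd68, a lysosomal glycoprotein of macrophages, was 10.36 and 10.50, against 5.22 and 6.09 (4.77 ± 0.44). The chemokines Ccl22 and Ccl5, which attract T cells, were 8.74 and 9.86 (Ccl22) and 11.01 and 11.68 (Ccl5) in luminal libraries. In basal libraries Ccl22 was 4.21 and 3.60 and Ccl5 was 6.56 and 6.34, which gave differences of 5.39 ± 0.51 and 4.90 ± 0.41. The adjusted p was 0.0493 for Lilrb4a, Cd68 and Ccl22 and 0.0473 for Ccl5 (limma). These genes moved in the direction of the myeloid markers given above, of which Cd68 is itself one.

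Of the 4 genes that fell in luminal cells, 2 are known from endothelium. Pdk4, a kinase that restrains pyruvate entry into the citrate cycle, was 4.15 and 3.54 in luminal libraries, against 9.79 and 10.35 in basal libraries (-6.22 ± 0.43, adjusted p = 0.0394, limma). Fgfbp1, a secreted carrier that releases fibroblast growth factors from the matrix, was 4.21 and 5.14 in luminal libraries, against 9.53 and 9.94 in basal libraries (-5.06 ± 0.47, adjusted p = 0.0493, limma). Sele, the endothelial adhesion receptor E-selectin, was 3.38 and 3.43, against 7.89 and 7.97 (-4.53 ± 0.36, adjusted p = 0.0456, limma). Cdh5, the cadherin of endothelial junctions, was 5.31 and 5.52, against 9.78 and 9.33 (-4.13 ± 0.39, adjusted p = 0.0493, limma). Sele and Cdh5 moved in the direction of the endothelial markers, of which Cdh5 is one, and Pecam1 was lower in the same luminal libraries.

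How firmly these 15 were called depended on the source of the spread. Where all 12 libraries of the series gave the spread, with the same 4 libraries in the contrast, 19 genes passed in limma: 14 higher (0.0745% of genes tested) and 5 lower (0.0266%) in luminal cells. Mxi1 and Pdk4 were the genes called in both fits, at an adjusted p of 0.0132 and 0.0455 in the second (limma), where Sva was at 0.365. Of the 10 alternatives that kept the 4 libraries, Sva passed in 6, Pdk4 in 5, and Mxi1 and Creg1 in 3 each. Fgfbp1, Cdh5, Nceh1, Rnase1, Ccl22 and Lilrb4a passed in 0 of them, and the other 5 genes in 1 or 2. Over all 14 alternatives, those without 1 library included, the adjusted p (limma) lay between 1.66e-13 and 0.488 for Sva, between 3.85e-10 and 0.242 for Mxi1 and between 7.8e-10 and 0.203 for Pdk4. For Nceh1 the range was 8.83e-05 to 0.303. The low ends came from fits without 1 basal library, where the prior degrees of freedom were 59.3, against 4.10 in the fit of 4 libraries.

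Genes beyond those called were described by the gap between groups, which is the lowest library of the higher group minus the highest library of the lower one. The groups did not overlap in 2774 genes that were higher in luminal cells (14.8% of those tested) and 2338 that were lower (12.4%). The gap was at least 1 in 231 higher (1.23%) and 173 lower genes (0.92%), so that 57.2% of these 404 were higher in luminal cells. After a further quantile normalization the counts were 229 and 264 and the higher share was 46.5%.

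Among the 15 widest gaps on the luminal side were further proteins of male secretions and of immune cells. Pate14, of the prostate and testis expressed family, was 10.47 and 11.68 in luminal libraries, against 3.47 and 5.27 in basal libraries, a difference of 6.70 ± 0.72. Lyz2, the lysozyme of macrophages and neutrophils, was 8.05 and 8.71, against 3.81 and 2.38. Cd53, a tetraspanin of leukocytes, was 9.82 and 9.90, against 4.81 and 5.91. In each of these the luminal pair lay at least 3.9 above the basal pair, and all 3 had an adjusted p of 0.0659 (limma), above the threshold. Xcl1, a chemokine of natural killer and CD8 T cells, was 10.69 and 8.75 in luminal libraries, against 4.66 and 3.79 in basal libraries (adjusted p = 0.0935, limma).

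Among the 15 widest gaps on the basal side were keratins, epithelial adhesion genes and endothelial genes. Emcn, an endothelial sialomucin, was 3.95 and 5.37 in luminal libraries, against 10.34 and 10.27 in basal libraries (-5.65 ± 0.55, adjusted p = 0.0504, limma). Selp, the adhesion receptor P-selectin of endothelium and platelets, was 4.56 and 4.31, against 8.92 and 10.06 (-5.05 ± 0.49, adjusted p = 0.0504, limma). Adgrf5, an adhesion receptor with high expression in endothelium, was 3.67 and 3.89, against 7.56 and 7.35 (adjusted p = 0.0533, limma). These 3 narrowly missed the threshold. Gja1, a connexin of gap junctions, was 5.76 and 5.53 in luminal libraries, against 9.01 and 9.51 in basal libraries (-3.61 ± 0.39, adjusted p = 0.0659, limma). Itga2, a collagen-binding integrin chain, was 4.41 and 4.63, against 8.46 and 9.75. Mall, a proteolipid of membrane rafts, was 3.30 and 3.59, against 7.15 and 8.56.

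**Figure D3:**
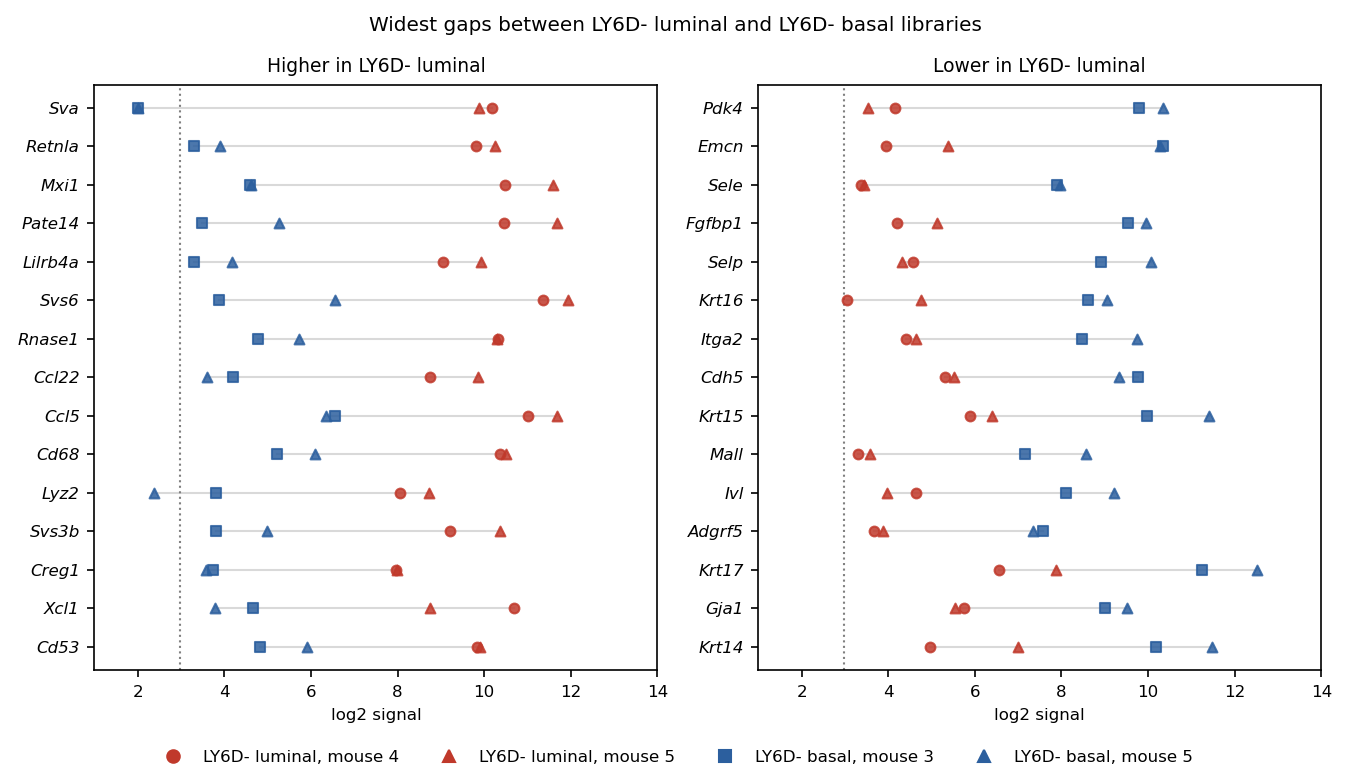
Log2 signal (x axis) in each of the 4 libraries for the 15 named genes with the widest gap on the luminal side (left) and on the basal side (right), with luminal libraries in red, basal libraries in blue, mouse 5 as triangles and the lower quartile of the table as a dotted line. Sva has the widest gap, with both basal libraries near 2, and Pdk4 the widest on the basal side.

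Basal epithelial genes were mostly lower in luminal cells, although none passed the test. Of 26 listed genes 23 were tested, of which 19 were lower on average. Without overlap 16 were lower, against 12.4% of all genes, and 7 by a gap of at least 1, against 0.92%. The list median was -1.65, against 0.03 over all genes tested, and it was -2.69 within mouse 5 and -0.64 for mouse 4 minus mouse 3. Krt14, a keratin of basal layers, was 4.98 and 6.99 in luminal libraries, against 10.19 and 11.47 in basal libraries (-4.85 ± 0.77, adjusted p = 0.168, limma). Krt15 was 5.89 and 6.41, against 9.99 and 11.40 (-4.55 ± 0.56, adjusted p = 0.0897, limma), and Krt17 was 6.56 and 7.86, against 11.25 and 12.51. In all 3 keratins mouse 5 was the brighter library in each group. Probe sets of related keratins can cross-react, which was not tested. The exception among the wide gaps was the matrix glycoprotein tenascin, Tnc, at 4.90 and 6.21 in luminal libraries, against 3.88 and 3.74 in basal libraries.

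Adhesion to the basement membrane followed the basal genes, with which the list shares members. Those with a wide gap, Itga3, Col17a1 and Itga6, all stand in the basal epithelial list too, so they are no second finding. Of 25 tested hemidesmosome and basement membrane genes, 20 were lower in luminal cells on average and 12 without overlap, against 12.4% of all genes. The list median was -0.73, with no call. Itga3, a laminin-binding integrin chain, was 6.41 and 6.81 in luminal libraries, against 9.33 and 10.98 in basal libraries. Col17a1, the hemidesmosome collagen, was 4.71 and 5.19, against 6.61 and 8.0. Squamous differentiation genes held 2 wide gaps on the basal side. Krt16, a keratin of activated epithelium, was 3.04 and 4.77 in luminal libraries, against 8.62 and 9.06 in basal libraries, and involucrin, Ivl, a cornified envelope protein, was 4.63 and 3.97, against 8.11 and 9.21. Among the 24 tested members 9 were lower without overlap, against 12.4% of all genes, 1 was higher, and the list median was -0.25. Its only wide gap on the luminal side was Cryab, a small heat shock protein, at 11.87 and 11.78 in luminal libraries, against 8.96 and 9.08 in basal libraries (2.80 ± 0.37, adjusted p = 0.0945, limma).

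Genes with wide gaps in the growth factor lists were higher in basal cells, and those in the list of plasminogen activation and matrix proteases lay both ways. Egfr, the receptor of epidermal growth factor, was 5.33 and 6.14 in luminal libraries, against 8.60 and 9.87 in basal libraries. Its ligand gene Tgfa was 4.83 and 4.62, against 5.84 and 6.04. The 14 tested genes of the EGF family had 6 lower members without overlap and 2 higher ones, where 12.4% and 14.8% of all genes were, and a median of -0.11. In the FGF list, 1 of 20 tested genes fell, Fgfbp1, against 0.0213% of all genes. Dusp6, a phosphatase induced by ERK signalling, was 7.47 and 9.67, against 11.21 and 11.06, and the list median was -0.03. Plaur, the urokinase receptor, was 5.05 and 7.24 in luminal libraries, against 9.57 and 11.09 in basal libraries. Serpinb5, the serpin maspin, was 3.90 and 5.37, against 8.36 and 9.32. Serpinb2, an inhibitor of plasminogen activators, differed by -3.11. The matrix proteases lay the other way: Mmp7, a matrilysin of secretory epithelia, was 10.66 and 11.71 in luminal libraries, against 4.65 and 7.88 in basal libraries, and the collagenase Mmp13 was 5.27 and 7.63, against 3.32 and 2.60. The list of plasminogen activation and matrix proteases had 5 higher and 4 lower members without overlap among 22 tested, near the 14.8% and 12.4% of all genes, and a median of 0.32. None of the genes in this paragraph but Fgfbp1 passed the test.

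Junction genes were mixed. Cldn1, a sealing claudin of tight junctions, was 6.28 and 8.99 in luminal libraries, against 10.43 and 12.05 in basal libraries, while the list median over 19 tested genes was -0.28. Of 11 tested gap junction genes, 9 were higher in luminal cells on average and Gja1 was the member with a wide gap, on the basal side. Neither list held a call.

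Genes in the list of prostate secretory proteins were mostly higher in luminal cells, and 1 of them, Rnase1, rose, against 0.0585% of all genes. The list was chosen with earlier results of these data known, so its counts are no independent test. It also holds genes whose products are not secreted, such as the membrane peptidase Mme. Of 29 listed genes 26 were tested, and 23 were higher on average. Without overlap 20 were higher, against 14.8% of all genes, and 14 by a gap of at least 1, against 1.23%. The median was 2.16, and it was 2.02 within mouse 5 and 2.30 for mouse 4 minus mouse 3. Azgp1, a zinc-binding glycoprotein of secretions, was 7.71 and 8.52 in luminal libraries, against 4.64 and 4.58 in basal libraries (3.50 ± 0.43, adjusted p = 0.0897, limma). Apof, an apolipoprotein, was 6.82 and 7.03, against 3.52 and 4.07 (3.13 ± 0.40, adjusted p = 0.0929, limma). Msmb, a secreted microseminoprotein, was 10.85 and 12.13, against 8.30 and 8.11. The member with a wide gap on the basal side was Lcn2, an iron-siderophore carrier of innate defence, at 6.54 and 6.41 in luminal libraries, against 7.67 and 9.22 in basal libraries. Of the tested members 7 stand in another list too.

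The luminal epithelial list, by contrast, had a median of 0.23. Of its 19 tested genes, 7 were higher and 3 lower without overlap, where 14.8% and 12.4% of all genes were. The list had no call. Its wide gaps were Tspan1, an epithelial tetraspanin, at 7.41 and 8.14 in luminal libraries, against 3.26 and 4.14 in basal libraries, Agr2, a disulfide isomerase of mucus-producing cells, at 11.16 and 11.58, against 4.15 and 8.22, and Dpp4, a surface peptidase, at 4.66 and 6.16, against 2.99 and 3.51. The basal libraries lay far apart for Agr2, with mouse 5 the higher. The pioneer factor gene Foxa1, which luminal cells use, was 5.99 and 6.16 in luminal libraries, against 7.54 and 8.18 in basal libraries. Hoxb13, another regulator of luminal cells, was 5.18 and 5.31, against 4.19 and 3.09. Over 25 tested prostate transcription factors the median was -0.18.

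Genes for seminal vesicle secretory proteins, which form the copulatory plug and seminal fluid in mice, had the highest median of the 34 lists. All 11 tested members, of 16 listed, were higher in both luminal libraries, against 14.8% of all genes. The gap was at least 1 in 10 of them, against 1.23%, and 1 rose, Sva, against 0.0585% of all genes. Sva passed the filter through its luminal libraries alone, so it could only be counted as higher and adds no support. The median was 4.01, against 0.03 over all genes tested, and it was 2.35 within mouse 5 and 5.41 for mouse 4 minus mouse 3. Svs6 was 11.36 and 11.93 in luminal libraries, against 3.88 and 6.57 in basal libraries (6.42 ± 0.87, adjusted p = 0.103, limma), and Svs3b was 9.22 and 10.36, against 3.81 and 4.99 (5.39 ± 0.59, adjusted p = 0.0659, limma). Ceacam10, a secreted relative of cell adhesion molecules, was 9.26 and 9.91, against 3.70 and 6.89. Other members had smaller differences: Svs5 was 13.08 and 13.28 in luminal libraries, against 9.49 and 11.82 in basal libraries, Svs2 was 12.35 and 12.78, against 9.63 and 10.99, and Svs4 was 12.31 and 12.59, against 9.64 and 11.18. In these 6 genes basal mouse 5 lay above basal mouse 3, and Sva was the exception, with both basal libraries equally low. Probe sets of the related Svs genes can cross-react, and the origin of this signal in prostate cells was not tested.

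The promoters of this gene group are shown because its members moved together and several lie side by side. In RefSeq's mouse assembly GRCm38.p6 the starts of Svs2, Svs3a, Svs3b, Svs4, Svs5 and Svs6 lie within 94523 bases of chromosome 2. Each sequence line gives 60 bases before and 30 bases from the start of transcription, 5′ to 3′ on the strand of the gene, with TATAAA in capitals where it occurs. In order they cover chr2:164256614-164256703 (minus strand), chr2:164278278-164278367 (minus), chr2:164332705-164332794 (plus), chr2:164316691-164316780 (plus), chr2:164238312-164238401 (minus) and chr6:42038334-42038423 (plus).
Svs3b: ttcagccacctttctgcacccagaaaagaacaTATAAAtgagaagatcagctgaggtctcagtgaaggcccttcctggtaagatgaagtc
Svs4: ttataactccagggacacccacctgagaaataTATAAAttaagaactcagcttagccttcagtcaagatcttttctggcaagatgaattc
Svs5: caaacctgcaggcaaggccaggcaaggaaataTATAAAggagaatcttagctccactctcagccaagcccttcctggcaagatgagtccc
Svs6: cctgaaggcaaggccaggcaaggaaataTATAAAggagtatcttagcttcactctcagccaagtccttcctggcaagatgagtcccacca
Svs2: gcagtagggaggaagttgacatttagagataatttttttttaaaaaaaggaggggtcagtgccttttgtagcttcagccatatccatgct
Sva: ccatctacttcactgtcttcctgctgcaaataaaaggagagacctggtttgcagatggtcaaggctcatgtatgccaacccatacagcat
The TATAAA of Svs3b, Svs4 and Svs5 begins 28 bases before the start and that of Svs6 begins 32 bases before it, while the Svs2 and Sva stretches hold none. Of the 11 tested members, 9 had a window in the RefSeq table, with 11 windows that reach from 250 bases before to 50 bases from the start. On either strand TATAAA stood in 7 of these windows (63.6%), against 13.6% of all 32851 windows of the table. On the strand of the gene and beginning 25 to 35 bases before the start it stood in 6 of them (54.5%), against 1.75% of all windows. These 6 windows belong to 5 genes, since Svs3a has 2 windows that begin 1 base apart. That distance was chosen after the sequences were seen. Related genes share sequence by descent, so these windows are not independent, and a match is a description of letters only.

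Of the 15 called genes, 12 had a window, and TATAAA stood on either strand in 3 of their 14 windows (21.4%). It was at the distance above in 1, that of Retnla, where it begins 30 bases before the start (chr16:48842549-48842638, plus strand).
Retnla: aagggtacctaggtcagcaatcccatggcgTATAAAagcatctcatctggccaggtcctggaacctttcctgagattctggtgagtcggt
The other motifs searched on both strands were TGACTCA, in 2 of the 14 windows against 5.2% of all windows, TGTTTAC, in 1 against 3.65%, CAGGAAG, in 4 against 13.3%, and CACGTG, in 1 against 7.15%. None of the 5 strings contains another. In the seminal vesicle list CAGGAAG stood in 6 of the 11 windows, which belong to 5 genes. TGTTTAC stood in 3 of these windows (2 genes), CACGTG in 2 (1 gene) and TGACTCA in 1. In the Svs3b, Svs5 and Svs6 stretches printed above, CAGGAAG lies after the start, on the opposite strand. These windows are of related genes and are not independent.

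The machinery that folds and exports proteins was on the luminal side as well, by small amounts. Of 34 tested genes of endoplasmic reticulum folding and secretion, 31 were higher in luminal cells on average. Without overlap 16 were higher, against 14.8% of all genes, and none was lower, against 12.4%. None passed the test. The median was 0.76, with 0.93 within mouse 5 and 0.65 for mouse 4 minus mouse 3. Sel1l, an adaptor of the degradation pathway for misfolded proteins, was 5.63 and 6.25 in luminal libraries, against 3.99 and 4.12 in basal libraries (1.89 ± 0.41, adjusted p = 0.408, limma). Sec61b, a subunit of the translocation channel, was 9.80 and 10.44, against 8.75 and 8.40. Manf, a stress-induced secreted protein, was 5.19 and 6.14, against 3.85 and 4.04, and Sdf2l1, a partner of the chaperone BiP, was 6.49 and 7.26, against 5.38 and 5.11.

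Myeloid genes were higher in luminal cells across nearly the whole list. Of 33 tested genes 32 were higher on average, and 1 rose, Cd68, against 0.0585% of all genes. The groups did not overlap in 26 higher genes, against 14.8% of all genes. In 13 the gap was at least 1, against 1.23%. The median was 1.50, and it was 1.87 within mouse 5 and 0.83 for mouse 4 minus mouse 3. Tyrobp, a signalling adaptor of myeloid and natural killer cells, was 7.96 and 9.88 in luminal libraries, against 5.60 and 3.95 in basal libraries. Laptm5, a lysosomal protein of leukocytes, was 6.30 and 6.98, against 3.51 and 3.62 (3.07 ± 0.41, adjusted p = 0.103, limma), and Ms4a7, a macrophage membrane protein, was 6.04 and 7.57, against 3.55 and 3.36. The macrophage receptors were uneven between luminal libraries: Adgre1, a macrophage surface receptor, was 5.60 and 8.35, against 4.77 and 3.68, and Csf1r, the receptor of macrophage colony-stimulating factor, was 5.42 and 7.27, against 4.10 and 3.72. In both, luminal mouse 5 stood well above luminal mouse 4, as it did for Ptprc.

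Chemokine and antigen presentation genes lay on the same side. Of 32 tested chemokines and receptors, 2 rose (Ccl5 and Ccl22), against 0.0585% of all genes, and the median was 0.78. Without overlap 17 were higher, against 14.8% of all genes, and 5 were lower, near the 12.4% of all genes. Ccl3, which attracts monocytes and T cells, was 7.45 and 10.44 in luminal libraries, against 4.13 and 3.74 in basal libraries. Of 21 tested antigen presentation genes, 9 were higher and 1 lower without overlap, beside the same shares of all genes. The list median was 0.31, with no call. The class II genes stood out: H2-Ab1 was 10.87 and 11.57 in luminal libraries, against 7.81 and 7.80 in basal libraries (3.42 ± 0.42, adjusted p = 0.0897, limma), and H2-Aa was 9.32 and 10.12, against 6.43 and 6.02 (3.50 ± 0.44, adjusted p = 0.0929, limma). Cd86, a co-stimulatory ligand on antigen-presenting cells, was 8.41 and 8.23, against 4.39 and 3.24 (4.51 ± 0.49, adjusted p = 0.0659, limma). The luminal libraries with these values had the higher myeloid marker means given above.

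Of 22 tested lymphoid genes 10 were higher in luminal cells without overlap, against 14.8% of all genes, none passed the test, and the median was 0.45, with 0.74 within mouse 5 and 0.13 for mouse 4 minus mouse 3. Gzma, a granule protease of cytotoxic cells, was 4.88 and 8.31 in luminal libraries, against 3.44 and 3.20 in basal libraries. Cd3e, of the T cell receptor complex, was 4.63 and 7.14, against 4.64 and 4.34, so that for this gene only luminal mouse 5 stood apart. Cd7, a surface protein of T and natural killer cells, was 5.74 and 5.69 in luminal libraries, against 4.69 and 4.37 in basal libraries, so that both luminal libraries lay above.

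Endothelial genes were lower in luminal cells, and 1 of them, Cdh5, fell, against 0.0213% of all genes. Of 28 tested genes 26 were lower on average. The groups did not overlap in 16 lower genes, against 12.4% of all genes. In 11 the gap was at least 1, against 0.92%. The median was -1.17, with -1.70 within mouse 5 and -0.66 for mouse 4 minus mouse 3. Adgrl4, an adhesion receptor of endothelium, was 3.40 and 3.08 in luminal libraries, against 8.22 and 6.34 in basal libraries (-4.04 ± 0.66, adjusted p = 0.177, limma). Kdr, the main receptor of vascular endothelial growth factor, was 4.07 and 3.89, against 7.70 and 5.54. Esam, an endothelial adhesion molecule, differed less, at 4.31 and 4.02 in luminal libraries, against 4.84 and 4.94 in basal libraries. The signal came from cells sorted as CD31-negative, and Pecam1 is itself a member.

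Stromal lists had medians near that of all genes, 0.15 for fibroblasts and 0.02 for smooth muscle. Without overlap 7 of 22 tested fibroblast genes were higher and 1 lower, where 14.8% and 12.4% of all genes were. In the smooth muscle list 5 of 16 tested genes were higher and 1 lower without overlap. Myh11, a myosin of smooth muscle, was 6.16 and 6.47 in luminal libraries, against 4.92 and 4.73 in basal libraries. The proteoglycan gene Dcn was 8.65 and 9.94 in luminal libraries, against 11.08 and 11.27 in basal libraries. Rgs5, a regulator of G protein signalling in pericytes, was 10.27 and 10.41, against 8.66 and 7.29. Thy1, a surface protein of fibroblasts and T cells, was 6.35 and 8.35, against 4.89 and 5.30. No member of either list passed the test.

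Single members also stood apart in lists of metabolism, defence and lineage. In the citrate and zinc list, 1 of 24 tested genes fell, Pdk4, against 0.0213% of all genes, and the median was 0.04. The zinc transporter gene Slc30a4 was 3.11 and 3.85 in luminal libraries, against 4.94 and 6.56 in basal libraries. In the MYC, MAX and MXD network, 1 of 13 tested genes rose, Mxi1, against 0.0585% of all genes, and the median was 0.03. Upk1a, a plaque protein of urothelium, was 9.30 and 9.16 in luminal libraries, against 4.81 and 5.48 in basal libraries (4.08 ± 0.41, adjusted p = 0.0533, limma). The other 3 urothelial markers did not separate the groups, and the urothelial list median was 0.06. Among mucosal defence genes the beta-defensins lay both ways. Defb42 was 6.12 and 7.45 in luminal libraries, against 3.35 and 2.74 in basal libraries (3.74 ± 0.56, adjusted p = 0.137, limma), Defb50 was 12.36 and 12.29, against 10.52 and 10.55, and Defb2 was 3.77 and 5.01, against 6.06 and 8.76. The list median was 0.11. In the interferon list, with a median of -0.07, the member with a wide gap was the antiviral gene Oasl1, at 6.51 and 8.47, against 5.09 and 4.49.

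The remaining lists showed no call and no wide gap or only Cryab. Their medians were 0.28 for immediate early and heat shock genes, 0.22 for ribosomal proteins, 0.13 for neuroendocrine, 0.10 for cell cycle, 0.06 for erythroid, 0.02 for proximal luminal progenitor, -0.04 for Notch, -0.06 for Wnt and -0.35 for cholesterol synthesis genes. For ribosomal proteins the median turned to -0.03 after a further quantile normalization. The proximal luminal progenitor median turned to -0.02 after arrays were centred on their medians, and the erythroid and urothelial medians turned to -0.04 and -0.02 after quantile normalization. Those of the smooth muscle, citrate and zinc, and MYC network lists turned negative under both. Clu, a secreted chaperone of the progenitor list, was 8.04 and 8.32 in luminal libraries, against 7.15 and 7.47 in basal libraries, and the replication clamp gene Pcna was 8.59 and 9.08, against 9.43 and 9.80. Neither passed the test.

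**Figure D4:**
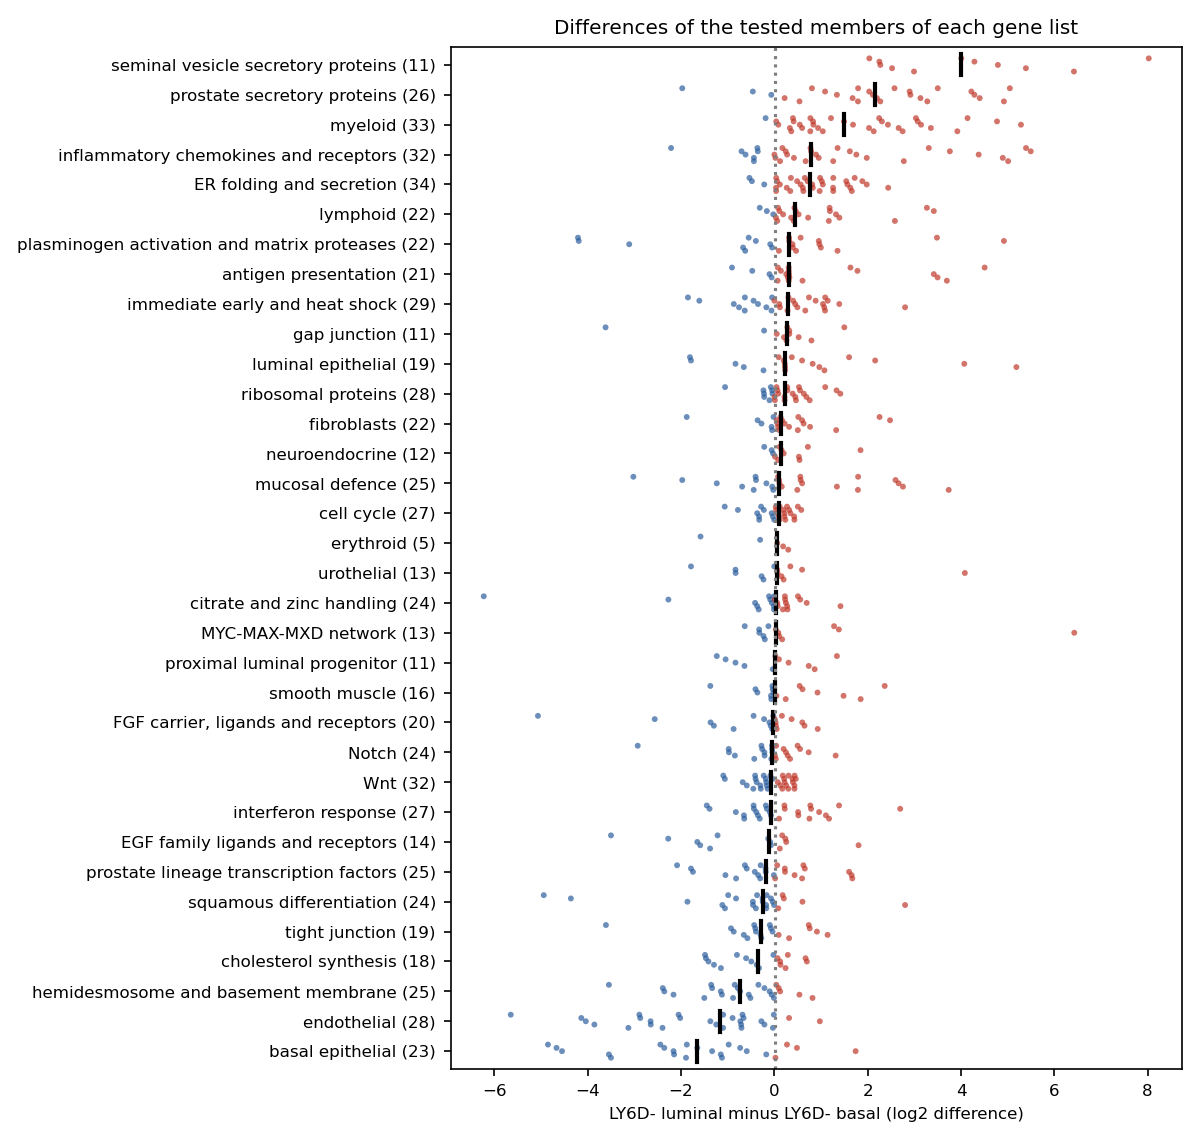
Luminal minus basal log2 difference (x axis) of each tested member (points, red above 0 and blue below) of 34 gene lists, with the number tested in brackets, list medians as black bars and the median of all genes tested as a dotted line. Seminal vesicle secretory proteins lie farthest to the right, at a median of 4.01, and basal epithelial genes farthest to the left, at -1.65.

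The fit with spread from 12 libraries added 17 genes to Mxi1 and Pdk4. On simulated data, the fit of 4 libraries recovered 0 of 100 genes changed by 2 and 59 of 100 changed by 6. It called 1 unchanged gene. The fit with spread from 12 libraries recovered 58 and 95 of 100, and called 11 unchanged genes over both sizes together. Azgp1, Tspan1, Cd86 and Xcl1, given above, rose in it at adjusted p between 0.0132 and 0.0421 (limma), and Gja1 fell. The other 12 were picked out here after their values were seen. Among those that rose were Rgs1, a regulator of G protein signalling in lymphocytes, at 7.37 and 8.62 in luminal libraries, against 3.46 and 3.57 in basal libraries, and Plek, a protein kinase C substrate of blood cells, at 7.99 and 8.43, against 4.46 and 4.27. Mmp12, the macrophage elastase, was 8.25 and 9.47, against 5.52 and 4.16, and Lcp1, an actin bundler of leukocytes, was 7.11 and 7.79, against 3.49 and 4.98. Ppan, a ribosome biogenesis factor, was 8.90 and 9.17, against 4.66 and 5.99, and Gdpd1, a glycerophosphodiesterase, was 7.41 and 6.99, against 4.43 and 4.17. Me2, the mitochondrial malic enzyme, Ctns, the lysosomal cystine exporter, and Spink11, of the Kazal inhibitor family, rose by 2.67, 2.0 and 1.89. Those that fell were Flvcr1, a heme and choline transporter, at 3.81 and 3.36 in luminal libraries, against 7.44 and 6.67 in basal libraries, the protocadherin Pcdh7, at 3.32 and 2.82, against 5.72 and 6.63, and the circadian gene Noct, at 5.53 and 6.70, against 9.12 and 9.40. In this fit the LY6D+ and Sca1-high libraries added to the spread and not to the differences.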

How the data were processed

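RNA was extracted from the sorted cells, amplified with the NuGEN Ovation V2 kit, labelled with biotin and put on arrays, per the labels' protocols. The authors deposited log2 values, 1 per probe set and array. RMA and oligo are named, without version or order, per the submitters' processing notes, and parameters are not given in the sources used here. The log2 values lay between 0.695 and 14.3 and were used as they stand. Scanner files and detection calls were not used here, so the scale was not checked against them.

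The table held 41345 probe sets: 23521 with a single gene symbol, 1814 with more than 1 and 16010 absent from the annotation. Single-symbol probe sets represented 22180 genes, and for the 1082 genes that had more than 1, the brightest over the 4 libraries was kept. Genes with fewer than 2 of the 4 libraries above the lower quartile were left out. limma 3.58.1 in R 4.3.3 fitted a mean per group, with 2 residual and 4.10 prior degrees of freedom. SE values are its moderated standard errors. On simulated data the fit with spread from 12 libraries recovered 58 of 100 genes changed by 2 and 95 of 100 changed by 6. It made 11 false calls over both sizes together, against 1 in the fit of 4 libraries. Simulated libraries were drawn independently, so the shared mouse 5 was left out, and these rates hold for that simulation only.

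The genes, lists and tests were chosen with earlier results of these data known. Of 765 genes in 34 lists, 685 were tested, 38 had no probe set, 27 only probe sets of several symbols, and 15 fell under the filter. Genes named are the sort genes, up to 12 called genes each way by difference, the 15 widest gaps each way among genes with a known product, up to 4 members each way per list with a gap of at least 1 (otherwise the 2 brightest) and the measured markers. Alternatives changed the filter, the scaling, the probe set rule, the moderation, the libraries that give the spread, the replicate block and the libraries included. Groups share mouse 5, which the labels give, and not the other mouse, so the pairing could be fitted only over 12 libraries. Promoter sequences are RefSeq's, matched by symbol. Some genes are not reported here.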

Additional observations from a re-analysis of the deposited data

How the results depend on the processing

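Against 15 calls, limma gave 1 with no filter, 1 with a stricter filter, 0 after centring, 2 after a further quantile normalization, 7 with the mean over probe sets, 1 with limma-trend, 7 with spread from the 6 LY6D- libraries and 19 with spread from all 12. With mouse as a fixed replicate block over 12 libraries it gave 6, of which 0 were among the 15, and with mouse as a random replicate block 25, of which 3 were, at a consensus correlation of 0.158. Without 1 library it gave 0 to 543, the lone library being assumed to vary like the other group. All 15 remained called without either basal library and none did without either luminal library, where 1203 (without mouse 4) and 999 (without mouse 5) genes had an unadjusted p under 0.05. In settings chosen after seeing the data, with spread from the other 11 libraries, the count was 195 without luminal mouse 4 (190 higher), 17 without luminal mouse 5, 13 without basal mouse 3 and 7 without basal mouse 5. Without both mouse 5 libraries it was 1 (Xcl1), with spread from the other 10. No called difference changed sign under any of these settings. The filters, limma-trend and the spread from 6 or 12 libraries could not change a sign, since they leave the difference as it was. Gaps of at least 1 numbered 366 to 493 over the 5 alternatives, against 404. The cause of these shifts was not tested. Signal near the lower quartile limits what can be said of low genes such as Sva in basal cells.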
